A study of Mus musculus with 8 samples.

Results

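Complement and coagulation factors are plasma proteins that the liver makes and secretes. A list of 37 such genes was matched to the platform annotation by symbol, and 35 of them had at least 1 probe, with 53 probes in all among 25697 on the array, where 16593 different gene symbols are named. No probe carried the symbols C3 or Cpb2, which were not analysed here. The 35 genes comprised 15 of complement, 19 of coagulation and fibrinolysis, and Serping1, the C1 inhibitor, which restrains proteases of both cascades and was counted with neither. A filter on dim signals (brighter than the median of the array on 4 or more of the 8) kept 52 probes and 34 genes, and the single probe of Fgb did not pass it.

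RNA from the livers of 8 mice of strain C57Bl6/Ntac was measured on Illumina bead arrays, 1 array a mouse. The 4 controls (mice 641, 658, 661 and 663) are given as Mfn1 wildtype and the 4 Mfn1 LKO mice (637, 638, 651 and 701) as lacking mitofusin 1, a GTPase that fuses mitochondria, in the liver. All were fed a high fat diet for 8 weeks and fasted for 6 hours. The labels used here state neither age nor sex. Titles of both groups name AlbCre, Cre recombinase driven by the albumin promoter, which acts in hepatocytes, so whether controls carried Cre is not settled, and an effect of Cre cannot be told apart from one of the deletion. Mfn1 itself fell by 1.57 and decreased by 1.54 on the log2 scale in the 2 probes past the filter (limma, adjusted p = 6.83e-07 and 2.28e-06), and no knockout reached the level of any control. The hepatocyte genes Apoa1, Apoa2 and Ttr were among the brightest 1% of probes, whereas the probe of Alb lay at the 64.7th percentile and that of Tat did not pass the filter. Median intensities of the arrays ran from 96.4 to 103.9 and their correlations from 0.985 to 0.995. Precision is limited by the small number of arrays. The p-values set the difference between groups against the spread between these mice, with variances moderated over all probes tested. Below, values for each mouse stand in the order 641, 658, 661 and 663 for controls and 637, 638, 651 and 701 for Mfn1 LKO mice, called knockouts beside them, and a log2 difference is knockout minus control.

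Complement is a chain of proteases that marks microbes and cells for removal. It starts from antibody, from sugar-binding lectins or spontaneously, passes through convertases that cleave C3 and C5, and ends in a pore built from the terminal components. Coagulation is a second protease chain, whose last step turns fibrinogen into a fibrin clot, and plasmin later dissolves that clot. Hepatocytes make most of these proteins, and several of them are acute phase proteins, whose liver output goes up during inflammation.

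No complement or coagulation gene passed the test between Mfn1 LKO and control livers (limma, adjusted p under 0.05), in either direction. Among all 12755 probes tested 2 passed, both of Mfn1, which is 0.0157% of the probes. At an unadjusted p under 0.05 there were 3 members, Klkb1 and F13b on the lower side and Serpinc1 on the higher side, or 8.82% of the 34 genes where 10.7% of all probes met that limit (4.66% on the lower and 6.04% on the higher side). These same 3 genes were those whose groups did not overlap, again 8.82% of the members against 6.15% of all probes (3.07% on each side). These counts take the brightest probe of each gene. Over the 52 member probes 4 met the limit (7.69%), with a second Fga probe on the lower side, and 3 had no overlap (5.77%). All these shares were near their background. The log2 fold changes of the 34 genes lay between -0.25 and 0.53 with a median of -0.065, against a median of -0.012 over all probes tested. By the brightest probe of each gene, the 95% interval lay within 0.5 log2 units of 0 for 28 genes and within 1 unit for all 34. Over the 52 member probes it lay within 0.5 units for 41 and within 1 unit for all 52. C9 and Plg are among the 28, though intervals of their other probes reached beyond 0.5. The intervals bound the changes in signal that each probe leaves possible. In whole liver RNA, fewer cells of a type and less RNA per cell cannot be told apart.

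**Figure D1:**
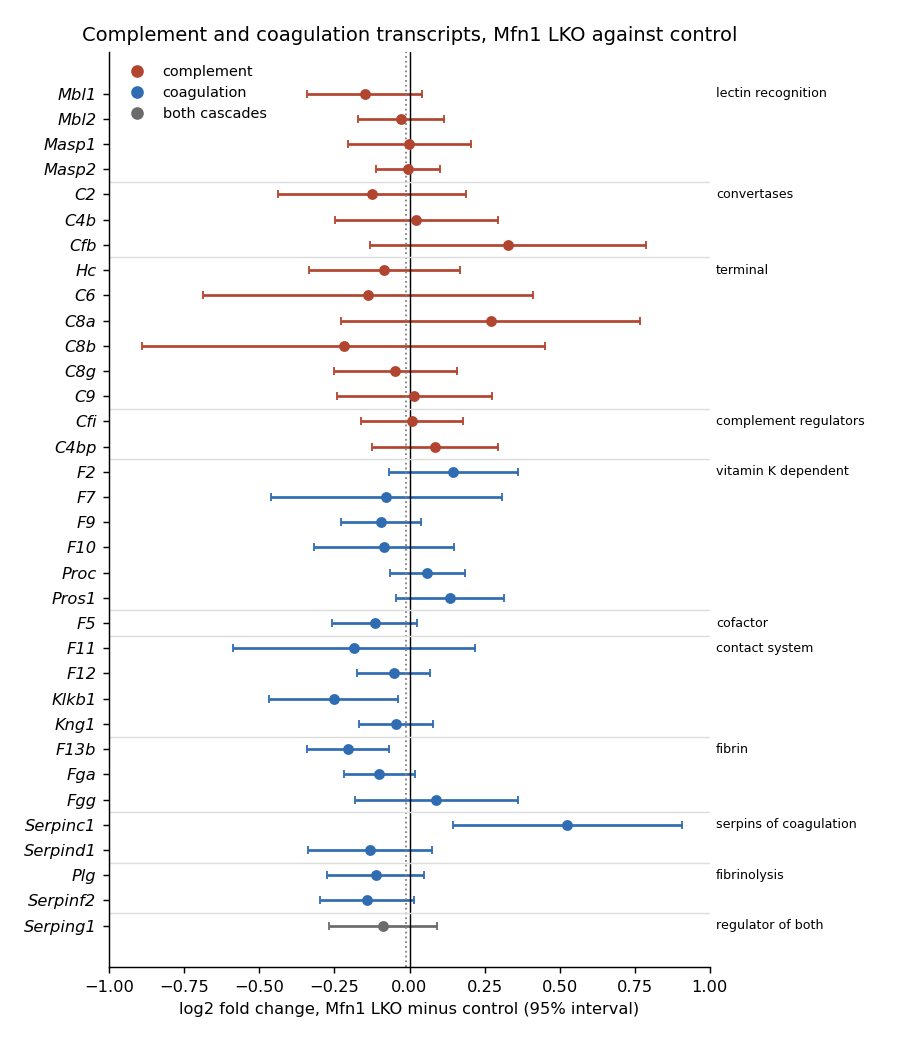
Log2 fold change (Mfn1 LKO minus control) with its 95% interval for the 34 genes past the filter, by the brightest probe of each and grouped by role, with complement in red, coagulation in blue and Serping1 in grey. The dotted line is the median of all probes tested, -0.012, and the intervals of Klkb1, F13b and Serpinc1 are those that do not cross 0.

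Apart from Mbl1, the listed lectin pathway genes of complement were nearly level between the groups by their brightest probes. Mbl1 and Mbl2 encode the mannose-binding lectins, and Masp1 and Masp2 their serine proteases. Mbl1 had the largest difference of the 4, with a log2 signal of 10.28, 10.62, 10.56 and 10.50 in the controls and 10.35, 10.51, 10.24 and 10.26 in the knockouts. The groups overlapped, and the log2 fold change was -0.15 (SE 0.086, adjusted p = 0.583). With 1 mouse left out it lay between -0.22 (without control 641) and -0.10 (without control 658). Masp2 was the steadiest complement gene by its brightest probe, with 10.96 ± 0.017 in the controls and 10.95 ± 0.055 in the knockouts (SD, n = 4 each). Its other probes had log2 fold changes of -0.12 and -0.045. The fold changes of Mbl2 and Masp1 were -0.029 and -0.00034 on the log2 scale.

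Among genes of the convertases, Cfb had the largest fold change of the complement list. It encodes factor B, the protease of the alternative pathway convertase. Its log2 signal was 10.28, 10.80, 9.87 and 9.84 in the controls and 10.30, 10.50, 10.39 and 10.90 in the knockouts. Controls 661 and 663 were the lowest of the 8, control 658 lay above 3 of the Mfn1 LKO mice, and the log2 fold change was 0.33 (SE 0.21, 95% interval -0.13 to 0.79, adjusted p = 0.616). Leaving out 1 mouse moved it between 0.20 (without mouse 701) and 0.53 (without control 658), with 0.22 without control 661 and 0.21 without control 663. C2, whose product cleaves C3 within the classical and lectin convertase, lies directly beside Cfb on chromosome 17 in the RefSeq gene table (GRCm38.p6). C2 gave 10.53, 10.90, 10.43 and 10.54 in the controls and 10.44, 10.24, 10.35 and 10.87 in the knockouts, a log2 difference of -0.12 (SE 0.14, adjusted p = 0.811), which was -0.26 without mouse 701, -0.047 without mouse 638 and -0.024 without control 658. Control 658 and Mfn1 LKO mouse 701 were thus the highest of the 8 for both neighbours. C4b, the other subunit of that convertase, had a log2 difference of 0.022 (SE 0.12), with the same mice highest at 12.29 and 12.27.

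The terminal components, which form the membrane attack complex, varied most between mice. C8a gave 9.93, 10.47, 9.52 and 9.33 in the controls and 10.02, 10.21, 9.75 and 10.34 in the knockouts. The control range enclosed all 4 Mfn1 LKO values, and the log2 fold change was 0.27 (SE 0.22, adjusted p = 0.718). It ranged from 0.11 without control 663 to 0.49 without control 658. C8b, its neighbour on chromosome 4 and the partner subunit of the same protein, gave 9.58, 9.68, 9.16 and 8.83 in the controls and 9.57, 9.43, 8.12 and 9.26 in the knockouts. Its log2 fold change was -0.22 (SE 0.30, adjusted p = 0.852), and mouse 651 held the lowest value. The direction rested on that mouse, since C8b was 0.11 without it. C6, which joins the complex before C8, had a log2 difference of -0.14 (SE 0.25), which was 0.048 without mouse 651 and 0.038 without control 641, and Hc, which encodes C5, one of -0.084 (SE 0.11), which was 0.027 without control 658. Hc gave 10.80, 11.22, 10.82 and 10.70 in the controls and 10.77, 10.77, 10.67 and 11 in the knockouts, with the groups overlapping. C8g, the third C8 chain, and C9, which polymerises into the pore, gave -0.047 and 0.016 by their brightest probes.

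The regions upstream of C8a and C8b are shown because these neighbours encode subunits of 1 protein and were among the members that varied most between mice. They are the 250 bases before each start site in RefSeq's GRCm38.p6 annotation, C8a at chr4:104876399-104876648 on the minus strand and C8b at chr4:104766067-104766316 on the plus strand. Capitals mark matches on either strand of 5 motifs searched, a core of the HNF1 site (GTTAAT), C/EBP as TTNNGNAA, STAT3 as TTCNNNGAA, the TATA box TATAAA and a form of the NF-kB site. No matches overlapped in the windows printed.
C8a: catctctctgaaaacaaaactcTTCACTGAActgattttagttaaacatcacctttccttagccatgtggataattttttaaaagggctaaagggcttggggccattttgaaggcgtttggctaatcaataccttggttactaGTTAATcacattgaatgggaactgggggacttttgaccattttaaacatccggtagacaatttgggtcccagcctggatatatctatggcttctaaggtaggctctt
C8b: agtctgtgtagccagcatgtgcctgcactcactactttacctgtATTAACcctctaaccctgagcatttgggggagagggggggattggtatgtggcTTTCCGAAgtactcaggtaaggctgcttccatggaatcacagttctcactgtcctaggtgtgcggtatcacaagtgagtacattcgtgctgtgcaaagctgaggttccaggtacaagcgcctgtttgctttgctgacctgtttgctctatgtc
The C8a window held a STAT3 match starting 228 bases before the start site and an HNF1 core at 107 bases, and that of C8b an HNF1 core at 206 bases and a C/EBP match at 153 bases. RefSeq windows, cut to the same 250 bases, were found for 28 of the 37 genes. The HNF1 core occurred in 25% of these and in 6.52% of the 27025 windows of all genes. The C/EBP letters occurred in 46.4% and 36.9%, those of STAT3 in 21.4% and 7.18%, the TATA box in 7.14% and 13%, and the NF-kB letters in none of the 28 and in 4.6%. A match is a string of letters only.

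The 2 regulators of complement measured were both close to 0. Cfi encodes factor I, which cleaves C3b and C4b, and C4bp the binding protein that helps it. C4bp gave 11.20, 11.23, 10.88 and 10.90 in the controls and 10.98, 11.19, 11.15 and 11.23 in the knockouts. The groups overlapped, with a log2 difference of 0.086 (SE 0.094, adjusted p = 0.808), and Cfi gave 0.0072 (SE 0.076). Serping1 lay between 12.41 and 12.67 in the controls and between 12.22 and 12.52 in the knockouts, a log2 difference of -0.089 (SE 0.081, adjusted p = 0.752), which was -0.020 without mouse 651 and -0.037 without control 658.

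Among coagulation genes, none of the 4 of the contact system passed the test, and all 4 log2 fold changes were below 0 by the brightest probe, as were 55.5% over all probes. Plasma kallikrein (Klkb1), factor XII (F12) and kininogen (Kng1) start clotting on surfaces, with factor XI (F11) as their substrate in clotting. Klkb1 gave 10.06, 10.08, 10.11 and 10.04 in the controls and 9.97, 10.02, 9.54 and 9.75 in the knockouts. Every knockout was under every control, with mouse 651 farthest, and the log2 fold change was -0.25 (SE 0.096, 95% interval -0.47 to -0.039, adjusted p = 0.378). Without mouse 651 it was -0.16 (adjusted p = 0.499). F11, the neighbour of Klkb1 on chromosome 8, gave 9.77, 10.21, 9.56 and 9.75 in the controls and 9.80, 9.86, 9.10 and 9.79 in the knockouts, a log2 difference of -0.18 (SE 0.18, adjusted p = 0.773). The groups overlapped for F11, where 651 was again the lowest, and the difference was -0.0056 without it. With all mice, the other probes of F11 gave -0.23 and, for the dimmest, -0.00049. F12 and Kng1 gave -0.053 and -0.046, and Kng1 was 0.024 by the mean of its probes.

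Among genes of fibrin and its crosslinking, none passed the test, and F13b had the smallest p, which was also the smallest of all members. F13b encodes the carrier subunit of factor XIII, the transglutaminase that crosslinks fibrin. It gave 10.59, 10.40, 10.59 and 10.49 in the controls and 10.39, 10.29, 10.34 and 10.24 in the knockouts. The groups did not overlap, though control 658 and mouse 637 lay side by side, and the log2 fold change was -0.20 (SE 0.061, 95% interval -0.34 to -0.069, adjusted p = 0.288), a signal 0.868 times that of controls. Fga, the fibrinogen alpha chain, gave 13.84, 14.02, 13.92 and 13.93 in the controls and 13.77, 13.84, 13.85 and 13.85 in the knockouts. Its log2 fold change was -0.10 (SE 0.053, adjusted p = 0.549). A second probe gave -0.13 (SE 0.056, 95% interval -0.26 to -0.0070, adjusted p = 0.437). Fgg, the gamma chain, lies beside Fga on chromosome 3 and gave 0.089 (SE 0.12, adjusted p = 0.851), with a range from 0.012 without mouse 701 to 0.18 without control 658. The probe of Fgb, the beta chain, lay at the 16.8th percentile of all probes, with log2 signals from 5.72 to 5.91 where the lowest of any probe was 5.65, so it does not bear on that transcript.

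The upstream regions of Klkb1 and F13b are printed as those of the members that were lower with no overlap of the groups, in the same way as above. They lie at chr8:45294836-45295085 on the minus strand for Klkb1 and at chr1:139501457-139501706 on the plus strand for F13b, in GRCm38.p6 as RefSeq gives it.
Klkb1: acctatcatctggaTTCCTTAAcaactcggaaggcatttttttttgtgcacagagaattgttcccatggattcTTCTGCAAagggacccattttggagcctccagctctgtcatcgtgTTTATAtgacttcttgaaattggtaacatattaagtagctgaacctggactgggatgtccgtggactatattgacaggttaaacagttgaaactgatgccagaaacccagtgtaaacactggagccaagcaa
F13b: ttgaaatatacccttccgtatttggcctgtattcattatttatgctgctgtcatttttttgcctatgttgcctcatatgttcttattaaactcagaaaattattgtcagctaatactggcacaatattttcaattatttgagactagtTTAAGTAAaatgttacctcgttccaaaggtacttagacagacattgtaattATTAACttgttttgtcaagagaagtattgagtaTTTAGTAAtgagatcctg
Both held 2 C/EBP matches, starting 236 and 177 bases before the start site in Klkb1 and 102 and 18 bases before it in F13b. Klkb1 also held the TATA letters at 132 bases, away from the start site, and F13b an HNF1 core at 51 bases.

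Of the 6 vitamin K dependent genes 3 were higher in value and 3 lower, but 5 were higher and 1 lower without mouse 651. Their products need a carboxylation of glutamate to bind membranes. Prothrombin (F2) gave 12.21, 12.32, 11.98 and 11.93 in the controls and 12.23, 12.21, 12.15 and 12.43 in the knockouts, a log2 difference of 0.15 (SE 0.096, adjusted p = 0.634). Factors VII (F7), IX (F9) and X (F10) gave -0.077, -0.096 and -0.085 (without mouse 651, F7 0.12 and F10 0.021), and the anticoagulants protein C (Proc) and protein S (Pros1) gave 0.060 and 0.13. F7 and F10 are neighbours on chromosome 8, and F7 was far less even in Mfn1 LKO livers (SD 0.42) than in controls (SD 0.077), with mouse 651 lowest at 7.67 and 637 highest at 8.69. F5, the cofactor of factor X, gave 8.72, 8.87, 8.77 and 8.86 in the controls and 8.75, 8.70, 8.55 and 8.75 in the knockouts. The groups overlapped, with mouse 651 lowest, and the log2 difference was -0.12 (SE 0.063, adjusted p = 0.557).

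Antithrombin (Serpinc1), which blocks thrombin and factor Xa, had the largest fold change of all 34 genes, and its probes were at odds. The brighter probe gave 8.30, 8.27, 7.65 and 7.49 in the controls and 8.35, 8.57, 8.43 and 8.45 in the knockouts. The groups did not overlap, the log2 fold change was 0.53 (SE 0.17, 95% interval 0.14 to 0.91, adjusted p = 0.310), and the difference came with low values in controls 661 and 663. The other probe, of similar signal, gave 8.11, 8.14, 8.17 and 8.03 in the controls and 8.00, 8.07, 7.93 and 8.06 in the knockouts, a log2 difference of -0.095 (SE 0.055, adjusted p = 0.582). With the mean of both probes Serpinc1 gave 0.22 (adjusted p = 0.492), and no direction can be given from these probes. Heparin cofactor II (Serpind1), the other thrombin inhibitor listed, gave -0.13 (SE 0.092, adjusted p = 0.657).

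Plasminogen (Plg), the precursor of plasmin, and Serpinf2, which encodes the plasmin inhibitor alpha-2-antiplasmin, were both slightly lower in value. Serpinf2 gave 11.93, 12.11, 11.95 and 11.94 in the controls and 11.82, 11.93, 11.69 and 11.93 in the knockouts. The groups overlapped, with a log2 difference of -0.14 (SE 0.070, adjusted p = 0.518), and its 3 probes were all negative, down to -0.22. The brightest Plg probe gave -0.11 (SE 0.072, adjusted p = 0.621), while its other probes gave -0.34 and 0.31.

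Of the 11 genes with several probes past the filter, 7 had probes of 1 sign and 4 did not. The latter were Serpinc1, Plg, Kng1 and Proc. For Kng1 the positive value, 0.17, came from its dimmest probe, at the 69.0th percentile of all probes. For Plg the probe at 0.31 was low in controls 661 (7.72) and 663 (7.82) and at or above 8.19 in the other 6 mice, the same controls that were low for the brighter Serpinc1 probe. A second C9 probe gave 0.39 (SE 0.19, adjusted p = 0.494), with control 663 the lowest at 9.60. The files do not say where in each transcript a probe lies.

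**Figure D2:**
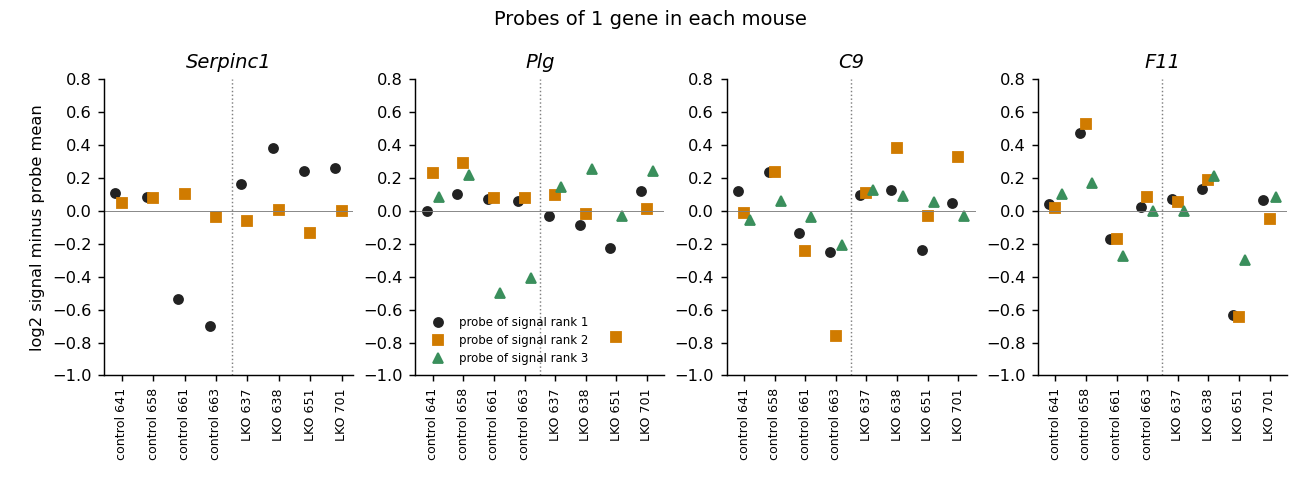
Log2 signal of each probe minus its own mean over the 8 arrays, in each mouse, for Serpinc1, Plg, C9 and F11, with the probes of a gene ranked by signal and controls left of the dotted line. Mouse 651 was lowest by each probe of F11, though the dimmest of them varied less across mice. The probes of Serpinc1 and Plg parted in controls 661 and 663 and those of Plg also in mouse 651.

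Complement and coagulation were then set side by side, as medians and without a test, since the genes were chosen with results of these data known. The median log2 fold change was -0.0050 over 15 complement genes and -0.091 over 18 coagulation genes, a difference of 0.086. Of the complement genes 9 were lower and 6 higher in Mfn1 LKO livers, and of the coagulation genes 13 were lower and 5 higher, or 60.0% and 72.2% lower where 55.5% of all probes tested were lower. Without mouse 651 the coagulation median was -0.025 with 11 of 18 lower, and the complement median was 0.048 with 4 of 15 lower. Without control 658 the complement median was 0.027 with 6 of 15 lower, and the coagulation median was -0.066.

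The families were also compared in how far mice of 1 group lay apart. The within-group SD of the log2 signal had a median of 0.19 over complement genes and 0.12 over coagulation genes, 1.65 times as large, against 0.11 over the 2014 probes with a mean log2 signal of at least 9. Over all member probes past the filter the medians were 0.17 and 0.15, a ratio of 1.16, so the contrast depended on taking the brightest probe of each gene. The 4 largest were all of complement, C8b (0.54), C6 (0.44), C8a (0.40) and Cfb (0.37). The smallest of coagulation were Fga (0.060), F12 (0.063) and Kng1 (0.066). These SDs are taken around the mean of each group, and the difference between the families was not tested.

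**Figure D3:**
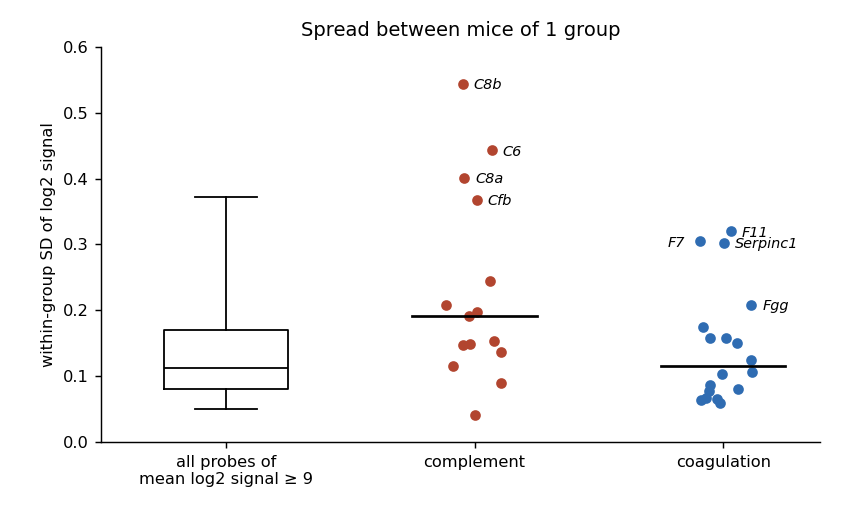
Within-group SD of the log2 signal for each complement and coagulation gene (points, with the 4 largest of each named and the median as a line), beside a box of all probes with a mean log2 signal of at least 9 (median, quartiles, and whiskers at the 5th and 95th percentile). Complement has a median of 0.19 and coagulation one of 0.12.

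The mice at the ends were the same for many members. Mfn1 LKO mouse 651 held the lowest signal of the 8 for 9 of 18 coagulation genes and 7 of 15 complement genes, 50% and 46.7%, where it was lowest for 20.9% of probes with a mean log2 signal of at least 9. It was highest for none of either list, though it was highest for 21.4% of those probes. Control 658 held the highest signal for 8 of 15 complement genes and 6 of 18 coagulation genes, 53.3% and 33.3% against 9.33%. Control 658 and Mfn1 LKO mouse 701 were together the 2 highest for C2, C4b, Cfb, Hc, C8a, Cfi and C4bp of complement and F2, F10, Fgg and Plg of coagulation, 46.7% and 22.2% against 5.26% of the same probes.

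**Figure D4:**
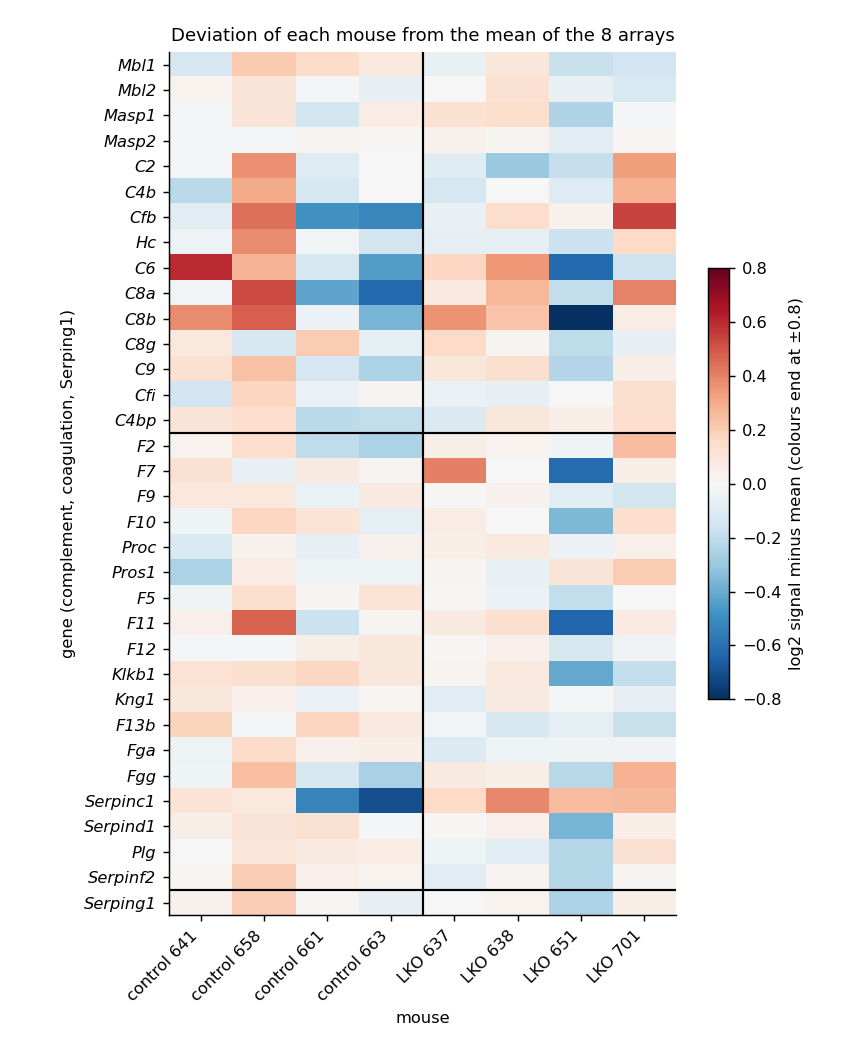
Log2 signal of each gene minus its mean over the 8 arrays, for 34 genes (rows, complement above coagulation above Serping1) in 4 controls and 4 Mfn1 LKO mice (columns). The column of mouse 651 is mostly blue, and those of control 658 and mouse 701 are red for C2, C4b, Cfb, C8a and Fgg.

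Markers of other cell types and of inflammation were measured in the same livers. The mean deviation of 15 acute phase genes was 0.64 in control 658 and 0.48 in mouse 701, and between -0.40 and 0.0069 in the other 6, with 9 of 15 higher in Mfn1 LKO livers. That of 3 neutrophil markers was 0.53 in control 658 and 1.2 in mouse 701 and at most 0.30 elsewhere. Of 7 macrophage markers all were higher in value in Mfn1 LKO livers, with mean deviations of 0.48 in mouse 651 and 0.39 in mouse 701, and the mean log2 level over the 8 markers with a probe ran from 7.26 to 7.68 in the controls and from 7.45 to 8.03 in the knockouts. The mean deviation of 9 hepatocyte markers ran from -0.18 in control 663 to 0.18 in mouse 637, with -0.13 in mouse 651. That of 6 stellate cell markers was 0.26 in mouse 651 and between -0.19 and 0.056 in the other 7. None of these markers passed the test, and their part in the member values was not tested.

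A number of member probes lay near the top of the signal range. Of the 257 probes that make up the brightest 1% by mean deposited intensity, 11 were of members, or 20.8% of their 53 probes. They belonged to 9 genes, C8g, C9 and Cfi of complement, F2, Kng1, Fga, Fgg and Plg of coagulation, and Serping1. Probe signals do not rank transcripts, since probes differ in how well they bind. The brightest Kng1 probe was the 10th brightest of all, with deposited intensities of 19658, 16591, 15805 and 18903 in the controls and 17505, 17606, 16432 and 16814 in the knockouts. It reached between 74.6% and 87.7% of the brightest probe of its array, and its groups overlapped. Fga followed at 15569 ± 798 in the controls and 14548 ± 497 in the knockouts (SD, n = 4 each), between 62.4% and 79.8% of the brightest. The files flag no saturated spots, so whether these probes still respond in proportion was not tested.

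Fold changes near the top were small in both directions. The 11 bright member probes gave log2 fold changes between -0.13 and 0.15, with a median size of 0.089, and the 41 others between -0.34 and 0.53, with a median size of 0.12. Over all probes the median size was 0.053 in the brightest 1% and 0.061 in the rest, with median SEs of 0.073 and 0.067. Quantile normalization fixes the values that the brightest ranks can take. With arrays scaled to a common median instead, Kng1 gave -0.058 (95% interval -0.23 to 0.11) and Fga -0.11 (95% interval -0.23 to 0.018), close to the -0.046 and -0.10 above.

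**Figure D5:**
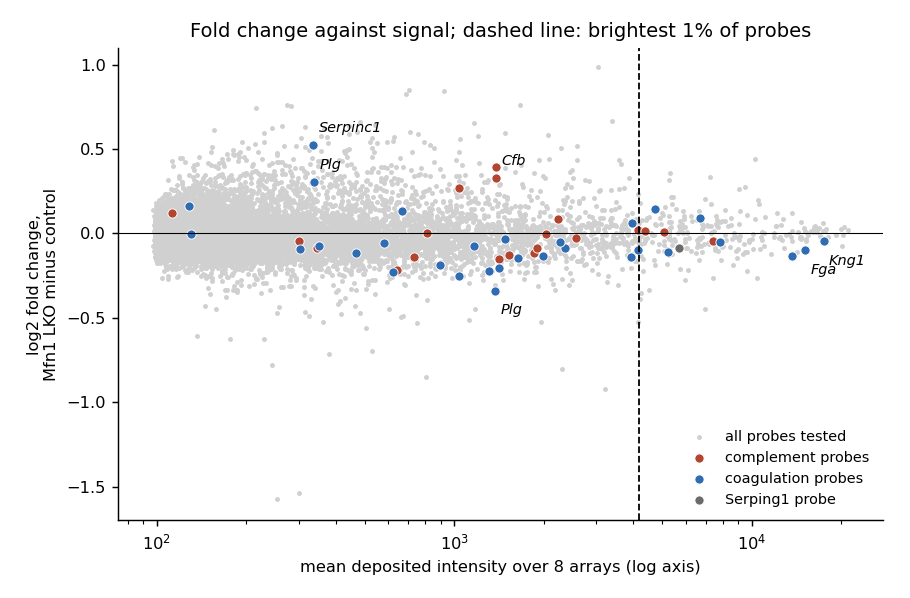
Log2 fold change (Mfn1 LKO minus control) against mean deposited intensity over 8 arrays (log axis) for all probes tested (grey), with complement probes in red, coagulation probes in blue and Serping1 in dark grey. The dashed line marks the brightest 1% of probes, beyond which the 11 member probes lie between -0.13 and 0.15, and the 2 grey points near -1.5 are the Mfn1 probes.

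No other gene of the pathways passed the test. Of 57 listed, 45 had a probe and 34 passed the filter, with 17 higher and 17 lower, a median log2 fold change of 0.0023 and a lowest adjusted p of 0.197. At an unadjusted p under 0.05 there were 6, or 17.6% where 10.7% of all probes met that limit. The leading values were all higher. Colec10, a collectin of the lectin pathway, gave 0.29 (SE 0.061). Its log2 signals were dim, from 6.13 to 6.63, where the lowest of any probe was 5.65. Vsig4, the complement receptor of Kupffer cells, the macrophages of liver, gave 0.54 (SE 0.16). Cfhr2, a factor H related protein, gave 0.35 (SE 0.12), and C1qc, a chain of C1q made by macrophages, 0.38 (SE 0.14). Their adjusted p-values in limma lay between 0.197 and 0.345. The remaining genes at that limit were Vwf (0.17, SE 0.075) and C1s1, which was lower (-0.13, SE 0.053). C1qa and C1qb, the other chains of C1q, gave 0.23 (SE 0.11) and 0.22 (SE 0.15). Colec10, Vsig4 and Cfhr2 were higher in all 4 Mfn1 LKO mice than in any control, 8.82% of the 34 genes against 3.07% of all probes on the higher side. Vsig4 is also 1 of the 7 macrophage markers given above. The 5 genes of carboxylation and secretion, among them Vkorc1 and Ggcx of the vitamin K cycle and Lman1, a cargo receptor of factors V and VIII, lay between -0.13 and 0.12. The 7 liver transcription factors measured, among them Hnf4a (0.10), Cebpa (-0.11), Cebpb (-0.24) and Stat3 (0.12), did not pass either (lowest adjusted p = 0.636).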

How the data were processed

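The table that the authors deposited holds linear intensities of 25697 probes on 8 arrays, with no detection values. A second table that the authors deposited holds log2 values of those arrays, which matched quantile normalized log2 intensities within 0.0066. Amplified RNA carried biotin, per the labels' protocols, and the scanner software is not given in the sources used here. Intensities were background-corrected with normexp (offset 50), quantile normalized and put on the log2 scale. The test kept 12755 probes that were brighter than the median of the array on 4 or more of the 8. Each was fitted in limma 3.58.1 under R 4.3.3 (lmFit, then eBayes; two-sided), and p-values were adjusted over all 12755 by Benjamini-Hochberg. A gene is represented by its brightest probe, and values of SE and interval come from that fit. Names came from GEO's platform annotation (23978 probes with 1 symbol, none with several, 1719 unnamed). Groups and mouse numbers came from the titles. No number is shared between groups, and no slide or date is given.

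The genes and lists, and the tests, were chosen with earlier results of these data known. The rule for named genes took, for complement and coagulation each, the 6 smallest p and the 4 brightest, then every gene whose groups did not overlap or whose probes differed in sign, Serping1, and 4 other pathway genes with the smallest p. Remaining members are given by value. Promoter windows came from RefSeq (GRCm38.p6). The fit was tested on simulated arrays with known changes. Alternatives were other background corrections, scalings, filters, probe rules and variance models, the deposited log2 values, and each array left out. Plots used Python 3.11.15 and matplotlib 3.10.9.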

Additional observations from a re-analysis of the deposited data

Results flagged for a closer look

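In groups of 4 mice, 6 of 68 pairs of member gene and group held a mouse far from the other 3 by Dixon's criterion. For independent, normally distributed values chance gives about 1 in 20 groups. The pairs share the same arrays and the share over all probes was not counted, so no excess among members can be read from this count. Mfn1 LKO mouse 651 was low for Masp2 (10.87, the others from 10.97 to 10.99), F11 (9.10, the others from 9.79 to 9.86) and Serpind1 (10.54, the others from 10.92 to 10.97). Mfn1 LKO mouse 637 was low for Fga (13.77, the others from 13.84 to 13.85). Control 661 was low for F9 (11.94, the others from 12.06 to 12.08), and control 658 was high for Serpinf2 (12.11, the others from 11.93 to 11.95).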

How the results depend on the processing

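No member and no other pathway gene passed an adjusted p of 0.05 in limma under any of 20 alternatives. The number of members at an unadjusted p under 0.05, 3 with all mice, was 1 with arrays scaled to a common median (Serpinc1), between 2 and 6 with 1 mouse left out (5 without control 641 and 6 without control 658), and 6 without mice 658 and 651 together, a setting chosen after seeing the data. Over all probes 2 passed, 1 with 1 probe per gene or the mean of the probes of a gene, and 3 without a filter or with array weights. The number was 4 with limma-trend and robust estimation, and 2 to 4 with 1 mouse left out (4 without Mfn1 LKO mouse 701). With 1 mouse left out the complement median lay between -0.055 and 0.048, the coagulation median between -0.12 and -0.025, and their difference between 0.038 and 0.094. The difference was 0.052 with the mean of probes and 0.14 without 658 and 651 together. Klkb1 lay between -0.32 and -0.16, F13b between -0.24 and -0.18, and Serpinc1 between 0.38 and 0.65. Serpinc1 was 0.22 with the mean of probes, where it no longer met the unadjusted limit and Fga (-0.12) did. The sign turned for 12 of 34 members when some 1 mouse was left out, for 7 of them (Masp1, Masp2, C6, C8b, C8g, F7 and F10) without mouse 651. The ranges were -0.076 to 0.0064 for Mbl2, -0.048 to 0.082 for Masp1, -0.018 to 0.022 for Masp2, -0.065 to 0.12 for C4b, -0.15 to 0.027 for Hc, -0.31 to 0.048 for C6, -0.38 to 0.11 for C8b, -0.10 to 0.014 for C8g, -0.064 to 0.10 for C9, -0.041 to 0.066 for Cfi, -0.22 to 0.12 for F7 and -0.14 to 0.021 for F10. Without 658 and 651 together C2 gave 0.019, Hc 0.072, Serping1 0.030, Mbl2 0.018, Masp1 0.12, Masp2 0.018, C6 0.12, C8b 0.23, F7 0.082, F10 0.062 and F11 0.12. Leaving out a control that was high for many members and a knockout that was low for many raises such differences by the choice itself. These turns of sign therefore carry no weight of their own. Cfi gave -0.0062 and Masp1 0.015 with a common median, Masp1 0.024 with cyclic loess and 0.041 with array weights, and Kng1 0.024 and Proc -0.0080 with the mean of probes. The median of all probes lay between -0.017 and -0.0016 over the alternatives. No paired analysis was possible because no mouse number is shared between the groups.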

Other observations

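C6, C8b and C9 of the terminal complement pathway, by their brightest probes, shared their 4 lowest mice with Serpina1e. Serpina1e is an alpha-1-antitrypsin paralogue listed among the other pathway genes. This was noticed after the values were seen. C6 gave 10.01, 9.68, 9.27 and 8.96 in the controls (641, 658, 661, 663) and 9.58, 9.75, 8.79 and 9.25 in the knockouts (637, 638, 651, 701). Serpina1e gave 12.08, 12.55, 10.03 and 10.13 in the controls and 12, 12.65, 9.43 and 11.76 in the knockouts, with SDs of 1.31 and 1.41. C9 gave 11.82 in control 663, 11.84 in mouse 651, 11.94 in control 661 and 12.12 in mouse 701, and at least 12.17 elsewhere. By these probes mice 651, 661, 663 and 701 were the lowest for each of these genes, 2 of each group. The other probes of C9 did not share this order. By the second, mouse 701 gave 10.68 and control 641 10.35, and by the dimmest, mouse 651 gave 6.32 and control 641 6.21. How many of all probes have the same 4 lowest mice was not counted. The log2 fold change of Serpina1e was 0.26 (SE 0.75, limma adjusted p = 0.940), and near-identical Serpina1 copies may share its probe. The brightest probes of Serpina1b, Serpina1c and Serpina1d, all in the brightest 1%, gave -0.0098, 0.014 and 0.0067.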
